A study of Homo sapiens with 8 samples.

Results

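The windows of chromosome 16 were described by arm in a SON TSA-seq comparison of 786-O cells given DMSO or the HIF-2α inhibitor PT2399. They were chosen by position on hg19: windows ending at or before 35300000 formed the short arm, 16p, and windows starting at or after 46400001 formed the long arm, 16q. The rule itself used position alone. Of 278316 windows of 100 kb over the whole series, 7111 met it, 3169 on 16p and 3942 on 16q. A further 1007 windows of chromosome 16 lay between the arms, around the centromere, and all of them were at the floor defined below.

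786-O is an established human clear cell renal carcinoma line. Cells received vehicle (DMSO) or 2 µM PT2399 for 3 h, and each treatment had 2 SON pulldowns and 2 inputs, 8 libraries in all. Groups follow the titles, although 4 of these libraries carry another antibody or treatment entry than their title, so every direction rests on the titles and on the columns named control and treatment. The labels do not say whether replicates came from separate cultures, so the deposited p-values may measure technical spread only.

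SON scaffolds nuclear speckles, bodies in the nucleus where splicing factors gather. TSA-seq uses an antibody-bound peroxidase to spread biotin over nearby DNA, so that a window close to speckles yields more pulled-down DNA than one at the nuclear edge. Gene-dense, early-replicating chromatin is known to lie near speckles, and gene-poor chromatin far from them. HIF-2α is the oxygen-regulated transcription factor that drives much of the gene expression of clear cell renal carcinoma, and PT2399 keeps it from pairing with ARNT.

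Levels are log2 concentrations of SON signal, given by the authors as 1 mean per treatment and window, without values per library, so that no standard deviation, n or depth goes with them. Changes are PT2399 minus DMSO on the log2 scale. Each of 9 sets tiled the genome with 100 kb windows, shifted by 10 kb from set to set, so neighbouring windows share most of their DNA and are not replicates. A window with a mean level below 0 was counted as at the floor, and a window with a level of at least 2 in both treatments as measured. Error is taken from the FDR of the authors' deposited tables, with calls at 0.01 or less. Over all measured windows of the series the median change was -0.13, a shift that may lie in the signal or in the scaling between treatments, which cannot be told apart here. Values recentred on that median are therefore given where it matters.

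The DNA of the windows is not printed, since a genome of their build was not used here. To show sequence of genes that the authors listed at lower windows, 2 promoters and the microRNAs among the authors' listed genes of chromosome 16 were read from RefSeq tables of GRCh38.p14. ALDOA encodes the glycolytic enzyme aldolase A and SLC7A5 an amino acid transporter; both are known HIF target genes and both were in the authors' deposited list of genes at lower 100 kb windows. The 250 bases before each start are shown 5′ to 3′, from chr16:30064029-30064278 on the + strand and chr16:87869508-87869757 on the - strand, with capitals on the core of the HIF binding site, ACGTG or GCGTG, on either strand.
ALDOA: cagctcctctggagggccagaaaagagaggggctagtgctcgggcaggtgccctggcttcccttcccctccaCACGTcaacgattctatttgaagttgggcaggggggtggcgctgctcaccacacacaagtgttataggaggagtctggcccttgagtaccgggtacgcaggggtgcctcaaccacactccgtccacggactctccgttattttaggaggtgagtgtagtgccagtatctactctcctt
SLC7A5: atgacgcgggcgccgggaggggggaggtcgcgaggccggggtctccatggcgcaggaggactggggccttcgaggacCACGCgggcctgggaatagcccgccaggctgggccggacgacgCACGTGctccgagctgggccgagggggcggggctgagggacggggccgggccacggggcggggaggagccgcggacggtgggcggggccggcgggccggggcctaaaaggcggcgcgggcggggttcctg

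ALDOA held 1 match and SLC7A5 held 3, of which 2 overlap in a single palindrome. Among listed coding genes with an entry in the promoter table, 22 of 39 on 16p (56.4%) and 7 of 8 on 16q (87.5%) held a match in these 250 bases. Unlisted coding genes held one in 56.2% of cases on 16p and 57.4% on 16q, and all coding genes in 50.5%. Matches of 5 bases are common in GC-rich promoters and are no sign of binding. The median GC content was 62.8% for the listed promoters of 16p and 73.8% for those of 16q, beside 67.2% and 65.6% for unlisted coding genes of the same arms and 62.4% for all coding genes.

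The authors' deposited list also held 3 microRNA genes of chromosome 16, MIR4518 on 16p and MIR138-2 and MIR1910 on 16q. Their mature sequences follow, 5′ to 3′ with the seed, bases 2 to 8, in capitals, to show that no seed is shared.
miR-4518: gCUCAGGGaugauaacugugcugaga
miR-138-5p: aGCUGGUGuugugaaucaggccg
miR-138-2-3p: gCUAUUUCacgacaccaggguu
miR-1910-5p: cCAGUCCUgugccugccgccu
miR-1910-3p: gAGGCAGAagcaggaugaca

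Both arms had more SON signal than the other autosomes, and less of 16p than of 16q was without it. On 16p, 14.0% of windows were at the floor, and on 16q 35.1%, against 61.7% of the windows of the other autosomes. Over the 9 sets these shares ran from 13.6% to 14.8% on 16p and from 34.5% to 35.8% on 16q. The sets come from the same libraries, so these ranges show only the effect of where the windows were placed. The median level over all windows was 8.82 with DMSO and 8.71 with PT2399 on 16p. It was 6.72 with DMSO and 6.70 with PT2399 on 16q. The arms differed mainly in how much of their length was at the floor: among measured windows the median mean level was 9.26 on 16p and 9.37 on 16q, and 8.56 on the other autosomes. At the top of the range, 15.5% of the measured windows of 16p had a mean level of 11 or more, beside 8.78% on 16q and 4.99% on the other autosomes. By floor share chromosome 16, with 34.9% over its whole length, ranked 4th lowest of the 22 autosomes, after chromosomes 19, 17 and 22. No test was made between arms or chromosomes, since windows are not replicates.

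**Figure D1:**
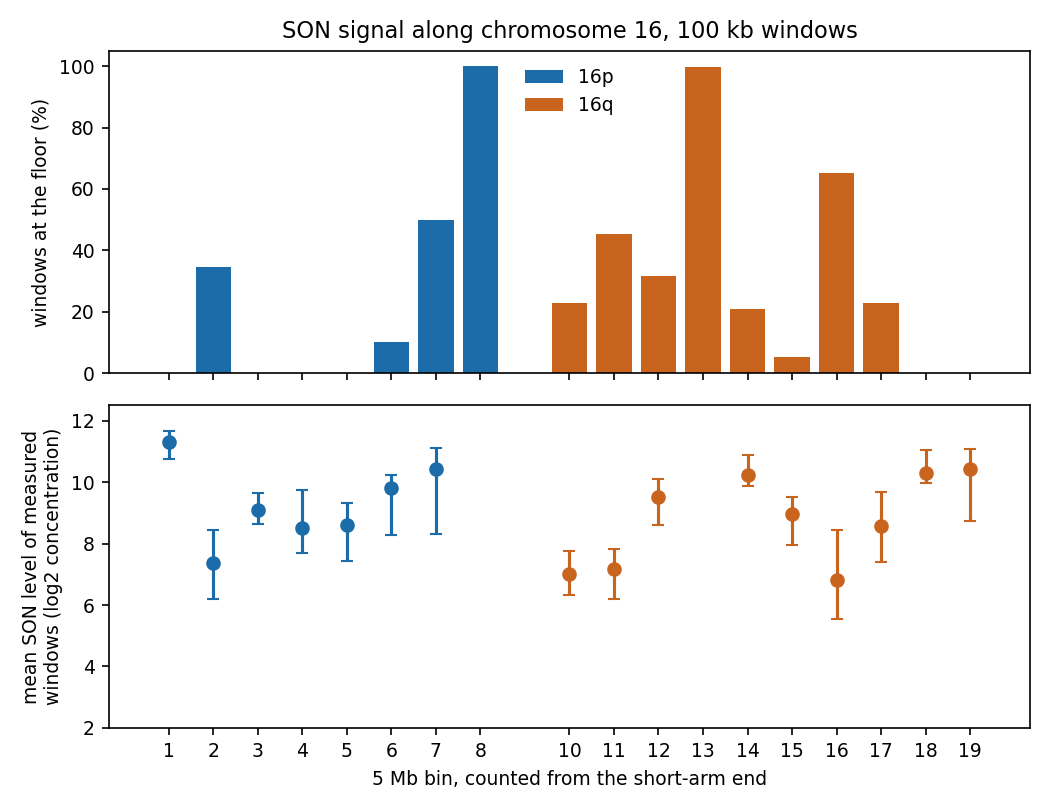
Share of 100 kb windows at the floor (bars, %) and mean SON level of the measured windows (points, median log2 concentration with quartiles) in 5 Mb bins counted from the short-arm end, 16p in blue and 16q in orange; a bin without a point has no measured window. Bin 1 has no window at the floor and a median level of 11.32, while bin 13 is 99.8% floor.

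The signal was uneven along each arm, and the short arm opened with the highest levels of the chromosome. In the first 5 Mb bin of 16p, chr16:1-5080000, 0 of 450 windows were at the floor and the median level was 11.32. Only 3 of 562 other autosomal bins of this size (those with at least 100 windows) had a median level as high. This gene-dense stretch is known for the alpha globin genes and for TSC2 and PKD1, the genes of tuberous sclerosis and polycystic kidney disease. The highest window of the chromosome, chr16:680001-780000, stood at 12.24 with DMSO and 12.27 with PT2399.

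A sharp drop followed. In the second bin, chr16:5000001-10080000, known for the very long neuronal splicing-factor gene RBFOX1, 34.7% of windows were at the floor and the median level over all windows was 4.60. The signal was then measured without a break from 10030001 to 25360000, over 15.33 Mb, with a median level of 8.87. Another unbroken measured run on the short arm reached from 26860001 to 32120000 at a median of 10.06. Towards the centromere 49.8% of the windows of the bin chr16:30000001-35080000 were at the floor, and the last measured window of 16p ended at 33310000.

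The long arm alternated between high blocks and long blocks at the floor. Its longest floor stretch, chr16:58800001-64450000, covered 5.65 Mb, a gene-poor interval known for the cadherin gene CDH8. Further floor stretches lay at 75680001 to 77280000 and at 77230001 to 78980000, and the bin around them, known for WWOX, a large gene that spans a common fragile site, was 65.1% floor. High blocks flanked these gaps. The run from 66200001 to 73700000 was measured throughout at a median level of 9.84, and the run from 83300001 to 90280000 at 10.15. The last full 5 Mb bin of the long arm, chr16:85000001-90080000, had 0% of its windows at the floor, a median level of 10.30, and 24 of 562 other autosomal bins at or above it. The short bin after it, chr16:90000001-90280000, held 18 windows, all measured, at a median level of 10.43.

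With PT2399 the measured windows of both arms shifted slightly below DMSO, with medians nearer 0 than that of the other autosomes. The median change was -0.08 on 16p (quartiles -0.22 and 0.04; 2547 windows) and -0.11 on 16q (quartiles -0.26 and 0.02; 2311 windows). The other autosomes had a median of -0.13. With the shift of the whole genome taken out the sign turned, to 0.04 on 16p and 0.01 on 16q, so neither arm can be called lower in itself. Over the 9 sets the median ran from -0.09 to -0.07 on 16p and from -0.13 to -0.10 on 16q. The linear signal summed over measured windows with PT2399 came to 94.5% of the DMSO sum on 16p and 92.8% on 16q, beside 91.7% on the other autosomes.

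Because the spread of the change depends on the SON level, each arm was also set beside windows of the other autosomes weighted to the same distribution of mean level, in 20 level bins. The median change of 16p was 0.04 above that of its level-matched windows (-0.12), and that of 16q was 0.02 above (-0.13). In single sets the difference ran from 0.03 to 0.05 for 16p and from 0.00 to 0.03 for 16q. Among measured windows 68.1% of 16p and 71.4% of 16q had a change below 0, beside 72.1% and 71.7% after matching. These differences are small against the quartile range within each arm, and no test was made of them. The difference between the arms, 0.03, is smaller still than the range of medians among the bins of either arm.

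**Figure D2:**
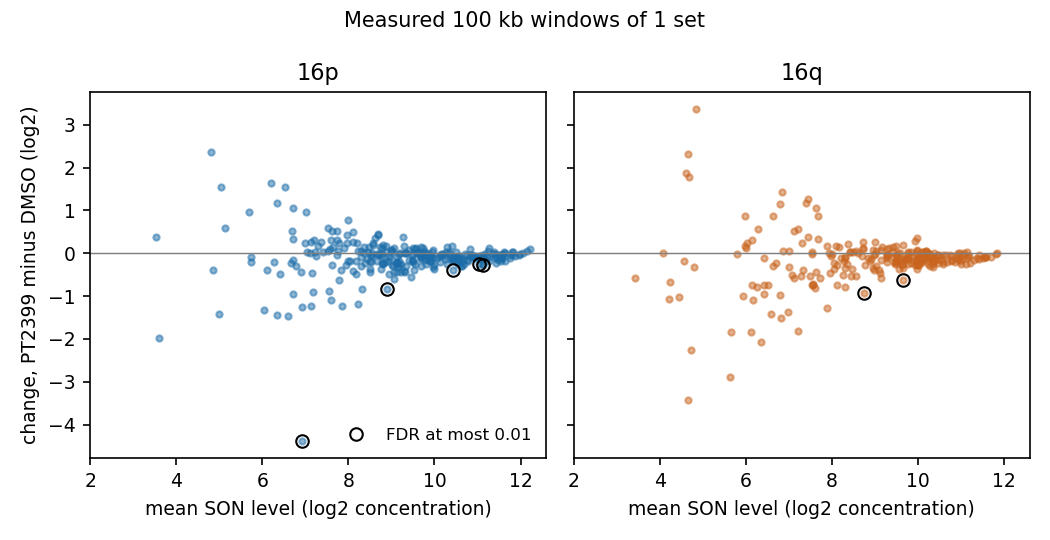
Change (log2, PT2399 minus DMSO) against mean SON level (log2 concentration) for the measured 100 kb windows of 1 of the 9 sets on each arm; each point is a window, and rings mark an FDR of at most 0.01. The spread narrows as the level rises, and most points above a level of 10 lie just below 0, a side that turns for the arm medians after recentring (0.04 and 0.01).

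Along 16p the change moved between bins by more than the arms differed. The first bin, with the highest level, had the median nearest 0, -0.04 (quartiles -0.11 and -0.01) from 11.34 with DMSO to 11.30 with PT2399, against -0.11 for level-matched windows. The bins chr16:15000001-20080000 and chr16:20000001-25080000 each had a median of -0.05, both 0.08 above their matched windows. The bin nearest the centromere that held signal, chr16:30000001-35080000, had the lowest median of the arm. Its 192 measured windows had a median change of -0.18, from 10.58 to 10.30, against -0.11 for matched windows, and 88.0% of them were below 0. In the single sets the median of this bin ran from -0.21 to -0.13, and that of the first bin from -0.05 to -0.04.

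On 16q the bins nearest 0 were chr16:55000001-60080000 and chr16:80000001-85080000, each at -0.04 and thus 0.10 and 0.08 above their matched windows. The first of these is known for the metallothionein genes, which encode small metal-binding proteins. The bin chr16:70000001-75080000 had the lowest median of the long arm, -0.17, and 77.6% of its 410 measured windows were below 0. In chr16:65000001-70080000, known for CTCF and the cadherins CDH1 and CDH3, 95.6% of measured windows were below 0, with a median of -0.14 and narrow quartiles of -0.20 and -0.08. Level-matched windows had a median of -0.13 for each of these bins, so the bins lay only 0.04 and 0.01 below them. In chr16:65000001-70080000, 0.585% of measured windows were called lower, beside 3.82% of level-matched windows. The low-signal bins varied most: the quartiles reached from -0.59 to 0.46 in chr16:50000001-55080000, and its single-set medians ran from -0.44 to 0.20. Among 272 other autosomal bins with at least 100 measured windows, 69 had a difference from matched windows as high as that of chr16:55000001-60080000, and 71 one as low as that of chr16:30000001-35080000, so neither is rare.

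**Figure D3:**
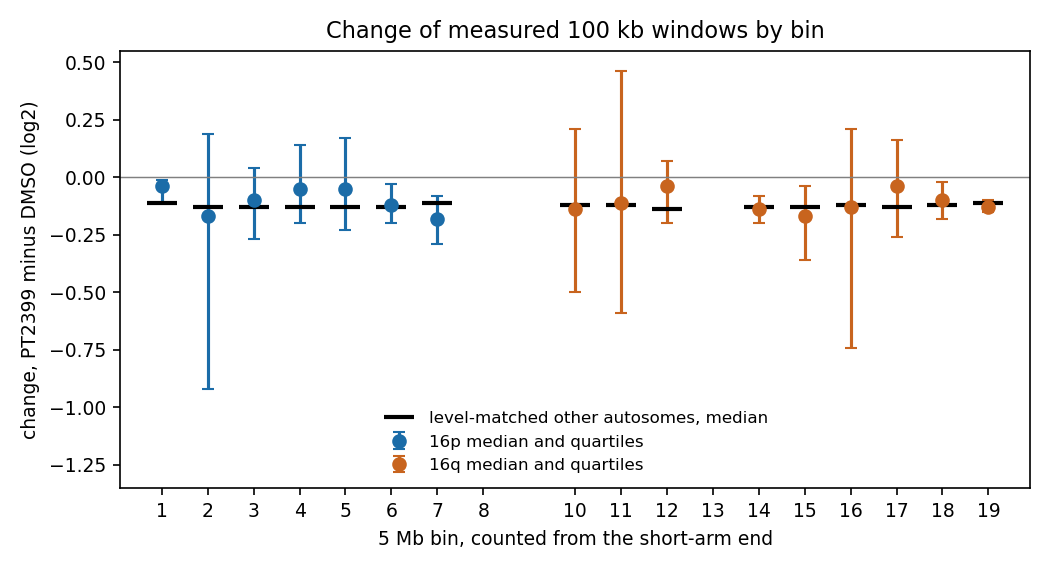
Median change (log2, PT2399 minus DMSO) of the measured 100 kb windows of each 5 Mb bin with quartiles, 16p in blue and 16q in orange, and the median of level-matched windows of the other autosomes (black bars). Bins 1, 4, 5, 12 and 17 lie nearest 0, at -0.05 or -0.04, and bin 7 lies lowest at -0.18; recentring adds about 0.13 to every value.

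At an FDR of at most 0.01 in the authors' deposited tables, 33 windows of 16p and 16 of 16q were lower with PT2399, against 0.614% of all windows of the series. That is 1.04% of the windows of 16p and 0.406% of those of 16q. Among measured windows there were 33 lower calls on 16p (1.30%) and 13 on 16q (0.563%), where the series had 1.55%. Level-matched windows of the other autosomes had 2.33% for 16p and 2.17% for 16q. Over all windows the share of 16p was thus above that of the series, and among measured windows, or at matched level, both arms were below it; no test was made of these differences. At an unadjusted p under 0.05, 13.2% of the measured windows of 16p and 13.9% of those of 16q were lower, against 15.3% in the series. Of the 49 lower windows, 2 were still called after recentring. These are 2 of the 4858 measured windows of the arms, beside 145 of 90286 in the series (0.161%). For comparison, 38 of the 4858 were lower by the implied error alone, without recentring, beside 1258 of 90286 in the series (1.39%).

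The 33 lower windows of 16p merged into 8 regions, and 27 of them (81.8%) lay in 6 neighbouring regions within 2.00 Mb, chr16:29920001-31920000. All 172 windows of this interval were measured, at a median level of 10.98 with DMSO and 10.82 with PT2399. The median change was -0.17, against -0.11 for level-matched windows, and 156 of the 172 windows were below 0. Most windows of such a level on the other autosomes were below 0 as well. There the upper quartile of the change was -0.07 at a mean level of 10 to 11, and -0.04 at 11 and above. Of these windows 15.7% were called lower, beside 4.01% of level-matched windows. The interval was picked out for its calls, so this share is a description. Outside it 16p had 6 lower windows. In the 5 Mb bin chr16:30000001-35080000, 12.0% of measured windows were called lower beside 3.40% of level-matched windows, and 6 of 272 other autosomal bins had as high a share. Without that bin 16p had 10 lower windows, 0.425% of those measured, beside 2.25% after matching. The bin was left out after its calls were seen, so the share of 16p had to fall. The matched windows kept their own bins with many calls, so the gap between these shares is a description only. The part of 16p around the 2.00 Mb interval is known for dense genes and near-identical duplicated blocks. The sources used here do not say how reads from such copies were treated.

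Within it, the region with the lowest FDR of 16p was chr16:31350001-31500000, called in 5 of the 9 sets, where the best window went from 10.55 to 10.05, a difference of -0.50 which left 70.7% of its DMSO signal (FDR 2.53e-05 by the authors' deposited table). The largest region, chr16:29920001-30220000, held 10 called windows from 8 sets and changed by -0.29 at its best window, from 11.52 to 11.23 (FDR 0.000261 by the authors' deposited table). At chr16:31040001-31220000, 7 windows were called, and the best changed by -0.29, from 11.26 to 10.97 (FDR 0.000928 by the authors' deposited table). These are windows of high signal, where the best window kept 81.8% of its DMSO signal in each of the last 2 regions and still passed the threshold. The region chr16:30430001-30550000 changed by -0.30, from 11.05 to 10.75 (FDR 0.00203 by the authors' deposited table). After recentring the best windows of these 4 regions stood at -0.37, -0.16, -0.16 and -0.18, and the lowest adjusted p within each region was 0.0171, 0.211, 0.286 and 0.255, so none passed.

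Away from that interval, chr16:5580001-5710000 went from 7.80 to 2.74, a change of -5.06 in a window that with PT2399 was close to the minimum for a measured window (FDR 0.000205 by the authors' deposited table). Of the 17 measured regions called lower at 100 kb on the chromosome, it was the only one still called lower after recentring, with a lowest adjusted p of 0.00155. The region chr16:10860001-11000000 changed by -0.91, from 9.12 to 8.21, which left 53.2% of its DMSO signal (FDR 0.00405 by the authors' deposited table). Outside the rule of 6 regions per arm, and named after their values were seen, chr16:31810001-31920000 changed by -1.11 and chr16:30620001-30720000 by -0.26 (FDR 0.00644 and 0.00884 by the authors' deposited table).

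**Figure D4:**
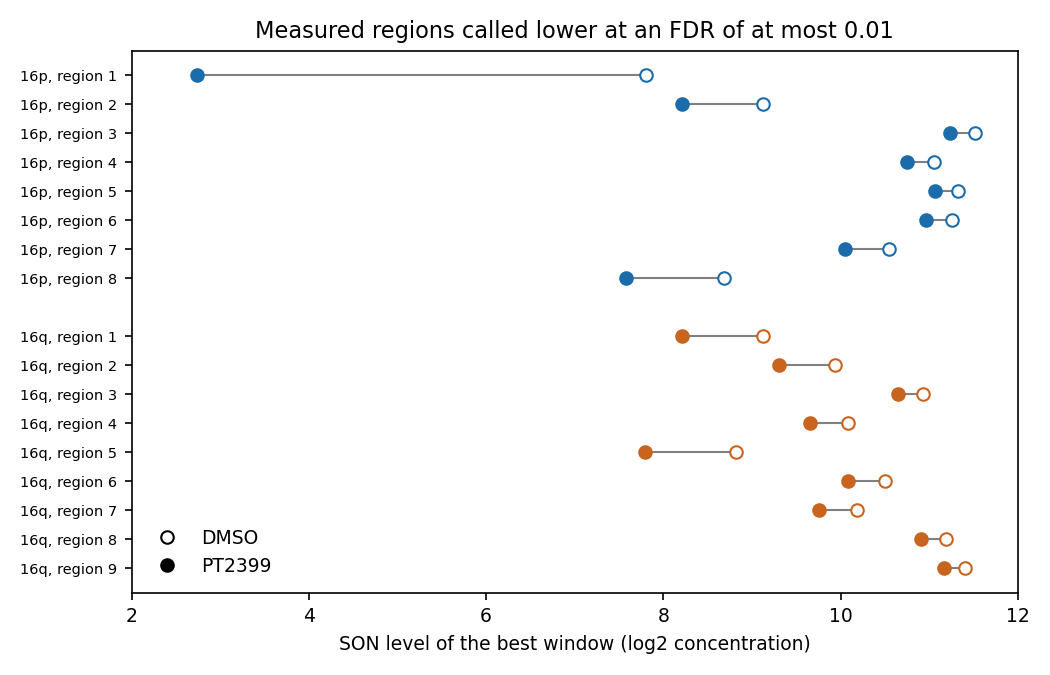
SON level (log2 concentration) of the best window of each measured region called lower, with DMSO (open) and PT2399 (filled), in order along 16p (8 regions, blue) and 16q (9 regions, orange). Region 1 of 16p ends near the minimum at 2.74, and 10 of the 17 regions changed by less than 0.5.

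The 13 lower measured windows of 16q were scattered over 9 regions, of which most rested on a single window. The lowest FDR belonged to chr16:56800001-56920000, called in 3 sets, where the best window went from 9.94 to 9.31, a difference of -0.63 which left 64.6% of its DMSO signal (FDR 0.000107 by the authors' deposited table). The region chr16:50100001-50200000 changed by -0.92, from 9.13 to 8.21, and left 52.9% (FDR 0.0029 by the authors' deposited table). Near the long-arm end, chr16:88610001-88710000 changed by -0.23 from a level of 11.40, and chr16:87810001-87930000 by -0.28 from 11.19 (FDR 0.00421 and 0.00634 by the authors' deposited table). Between them in rank, chr16:85720001-85820000 and chr16:86810001-86910000 each changed by -0.42, from 10.50 and 10.18 (FDR 0.00463 and 0.00494 by the authors' deposited table). Outside the rule, and named after their values were seen, chr16:68520001-68620000 changed by -0.42, chr16:67350001-67450000 by -0.28 and chr16:83830001-83930000 by -1.03 (FDR 0.00814, 0.00821 and 0.00851 by the authors' deposited table). None of these 9 regions was still called lower after recentring, and the lowest adjusted p among them was 0.0141, at chr16:56800001-56920000.

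The few gains called on chromosome 16 at 100 kb were in windows that were not measured with DMSO. By the authors' deposited FDR, 0 windows of 16p and 6 of 16q were higher, 0.152% of the windows of 16q against 0.139% in the series. They formed 2 regions. The best window of chr16:55800001-55940000 went from -0.07 to 6.86 (FDR 0.00147 by the authors' deposited table), and that of chr16:81800001-81920000 from -0.07 to 6.92 (FDR 0.00264). Since DMSO was at the floor, no fold is given. Among measured windows 0 were higher at that FDR, against 0.0853% in the series, and after recentring, on the implied error, 2 measured windows of 16q were called higher (series background 0.109%), so they are not among those 6. At an unadjusted p under 0.05, 11 measured windows of 16p and 31 of 16q were higher, 0.432% and 1.34% against 1.95% in the series. Losses to the floor were called too: 3 windows of 16q, at chr16:47350001-47450000, chr16:47820001-47920000 and chr16:55520001-55620000, went from levels of 6.60 to 7.0 with DMSO to -0.11 with PT2399. In the series 1709 windows were called lower and only 1403 of them were measured, so lower calls outside the measured windows were not particular to 16q. Without regard to calls, the level reached 2 with DMSO alone in 98 windows of 16p and 111 of 16q, and with PT2399 alone in 61 and 115. Of the 278316 windows of the series, 6694 reached it with DMSO alone and 7390 with PT2399 alone. Among windows with a mean level of 8 or more, the highest change of 16p was at chr16:5150001-5250000, from 8.12 to 8.86 (FDR 0.0717 by the authors' deposited table), and that of 16q at chr16:56260001-56360000, from 7.68 to 8.32 (FDR 0.358). Neither passed the threshold.

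At 50 kb the calls were fewer and fell in part on the same places. By the authors' deposited FDR, 23 windows of 16p and 13 of 16q were lower, 0.362% and 0.165% against 0.176% in the series, and 18 and 10 of them were measured (0.357% and 0.218%, against 0.357%). Of the 17 lower measured regions at 100 kb, 10 overlapped one at 50 kb, and of the 15 at 50 kb, 11 overlapped one at 100 kb; both sizes come from the same libraries. The region with the lowest FDR, chr16:55530001-55585000, went from 7.53 to 2.02 (FDR 2.9e-06 by the authors' deposited table). In the same 5 Mb bin lay chr16:55850001-55905000, one of 5 regions of the chromosome called higher at this size (8 windows, against 0.0503% in the series), where the level went from -0.07 to 6.99 (FDR 0.000307 by the authors' deposited table). A loss and a gain, both to or from low signal, thus stood in 1 bin of 16q. The region chr16:56800001-56875000 was called at both sizes and changed by -1.17 at 50 kb, from 8.92 to 7.75 (FDR 5.19e-05 by the authors' deposited table). It and chr16:55530001-55585000 were still called after recentring, with lowest adjusted p of 0.00205 and 1.64e-05. The median change at 50 kb was -0.08 on 16p and -0.11 on 16q.

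Among measured 50 kb windows 0 were called higher on either arm, against 0.0291% in the series. At an unadjusted p under 0.05, 479 windows of 16p (9.49%) and 420 of 16q (9.15%) were lower, against 9.72% in the series, and 63 (1.25%) and 45 (0.981%) were higher, against 1.79%. Recentring left 0 lower calls on 16p and 2 on 16q, against 0.0403% in the series, and 0 higher calls on both arms, against 0.0174%. With the implied error and no recentring 11 windows of 16p and 6 of 16q were lower, against 0.246%. At this size, then, the lower share of 16p was above that of the series over all windows and equal to it among measured windows, and that of 16q was below it in both.

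The authors' deposited gene lists placed 72 genes of chromosome 16 at lower 100 kb windows, 58 on 16p and 14 on 16q, after older symbols were updated. Among coding genes this was 51 of 480 on 16p (10.6%) and 12 of 374 on 16q (3.21%), beside 4.34% on the other autosomes. At 50 kb it was 16 (3.33%) and 4 (1.07%), beside 1.10%, and 18 genes were in both lists. These are genes of called windows, counted by symbol; genes were not placed in windows here, so no gene has a change of its own. On 16p the listed genes formed a few dense series of neighbours, the longest of 10 coding genes from ALDOA to SULT1A3.

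That series holds PPP4C, a protein phosphatase, TBX6, a developmental transcription factor, MAPK3, a kinase of the MAP kinase cascade, and CORO1A, an actin-binding protein of leukocytes. Next to it, in the order of the RefSeq table, stood TAOK2, a protein kinase, HIRIP3, INO80E, a subunit of a chromatin remodeller, and DOC2A, a calcium sensor of synaptic vesicle release. MAPK3, TAOK2, HIRIP3, INO80E and DOC2A were in the 50 kb list as well, with their listed neighbours GDPD3 and TMEM219. Both members of the near-identical pairs BOLA2 and BOLA2B, SLX1A and SLX1B, and SULT1A3 and SULT1A4 were listed at 100 kb, and such copies cannot be told apart with certainty.

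Farther along 16p the list held the leukocyte integrin genes ITGAL, ITGAX and ITGAD, the chromatin regulators SRCAP and KAT8, VKORC1, the vitamin K enzyme that warfarin blocks, and PYCARD, the adaptor of inflammasomes. SLC5A2, the glucose transporter that recovers glucose in the renal tubule, was listed at 100 kb. CIITA, the master regulator of MHC class II genes, and its neighbour TVP23A stood apart from the rest of the short arm. On 16q SLC12A3, the sodium chloride cotransporter of the distal tubule, TENT4B, a poly(A) polymerase, ZFP90, HSBP1 and SLC7A5 had no listed coding neighbour. The longest series of the arm was KCTD19, LRRC36 and TPPP3. GINS2, a part of the replicative helicase, stood next to C16orf74, and ZC3H18 next to IL17C. LPCAT2 on 16q, an enzyme of phospholipid remodelling, and TMC5 on 16p were in the 50 kb list alone.

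Of 63 genes of chromosome 16 chosen by function, 0 were in the 50 kb list. The values that follow are for the 100 kb list, which held 7.38% of all coding genes of chromosome 16 and 4.34% of those of the other autosomes. SLC7A5 and ALDOA, both listed, were the 2 genes chosen as HIF targets and glycolysis, a choice made with earlier results of these data known, so their presence supports nothing. Of 10 renal genes, 2 were listed, SLC12A3 and SLC5A2, and UMOD, PKD1, TSC2, HSD11B2, SCNN1B, SCNN1G, CDH16 and AQP8 were not. SRRM2, which with SON forms the core of speckles, was not listed. None of 11 metallothioneins, 6 genes of the alpha globin cluster, 8 cadherins, 5 carboxylesterases, 7 patterning genes such as IRX3 and FOXF1, or 10 tumour suppressor and DNA repair genes such as CREBBP and PALB2 was in the 100 kb list either. Genes in windows at the floor could not have been called lower. The alpha globin genes, TSC2 and PKD1 are known from the first 5 Mb bin, where all 450 windows were measured. How many of the other genes lie in windows at the floor was not determined.

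Chromosome 16 was last set beside the autosomes with a median measured level at or above its own, and beside chromosome 1, the next below it. Its share of measured windows called lower, 0.947%, stood beside 2.25% of level-matched windows of the other autosomes. Chromosome 17 had 1.74% beside 2.57%, and chromosome 19 had 1.13% beside 3.71%. Chromosome 22, with a median measured level of 9.88, had 5.27% beside 2.48%, and chromosome 20, with the same median level as chromosome 16, 9.31, had 3.20% beside 1.88%. Chromosome 1, with a median measured level of 9.11, had 3.09% beside 1.69%. The median change was -0.10 on chromosome 16, -0.11 on chromosome 17, -0.13 on chromosome 19, -0.17 on chromosome 22 and -0.16 on chromosome 20. On chromosome 1 it was -0.18. By the difference from matched windows, 0.02, chromosome 16 ranked 11th from the top of 22 autosomes, in a tie with chromosomes 13 and 17. In windows with a mean level of 11 or more, 4.05% of 16p and 1.97% of 16q were called lower, against 5.87% on the other autosomes; from 10 to 11 the shares were 1.98%, 0.364% and 4.28%. No test was made of these differences.

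**Figure D5:**
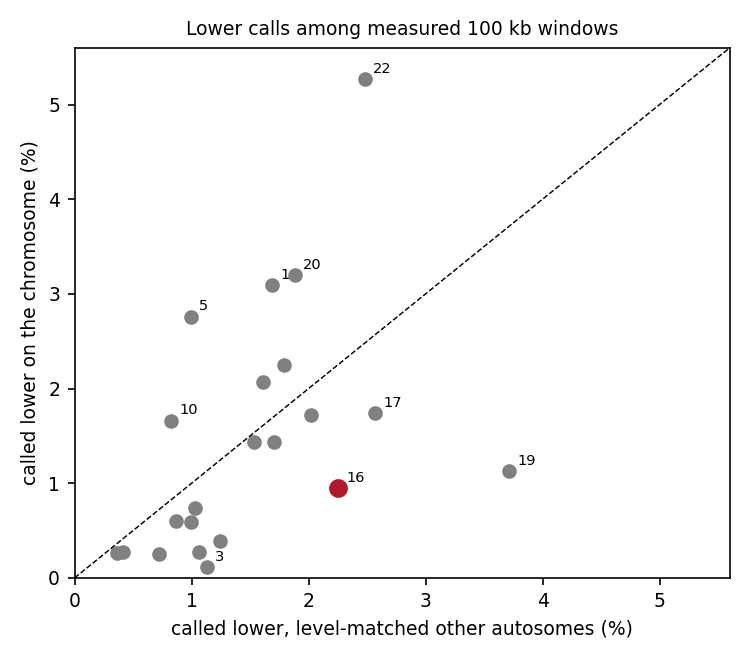
Share of measured 100 kb windows called lower at an FDR of at most 0.01 on each autosome (y axis, %) against the share in level-matched windows of the other autosomes (x axis, %), with the dashed line at equality; chromosome 16 is in red, and 8 others are numbered. Chromosome 16 lies below the line at 0.947% and 2.25%, with chromosomes 17 and 19, while chromosomes 1, 20 and 22 lie above it.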

How the data were processed

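The build hg19 and the tools bedtools, Bowtie2, DiffBind and Picard are named per the submitters' processing notes, with no version or role. The use of the inputs, the counting and the scaling of libraries are not stated there. The window tables the authors deposited hold, per the file headers, log2 concentrations of each treatment and of their mean, and a log2 fold that equals control minus treatment within 0.01. Changes here are treatment minus control. The p-value and FDR of a window are the authors' as well, per the file headers, and the columns are values of a whole treatment, with 0 columns per library. The lists the authors deposited hold positions or symbols and no measurement; 982 of 1023 and 251 of 258 symbols matched a RefSeq table of GRCh38, used for names, arm and order only.

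Since the unit allowed no count test, calls were the deposited FDR at a maximum of 0.01, over the whole tables. Called windows that overlapped by at least 1 bp were merged. Level matching weighted the measured windows of the other autosomes over 20 bins of mean level. Recentring subtracted each set's median measured change; errors were the absolute change divided by the normal quantile of the p-value, with the median of 20 level bins where the change was under 0.1 or p at least 0.5, and p-values were adjusted by Benjamini-Hochberg. Whether the implied errors hold for these windows was not tested, since there are no values per library. Regions were named by lowest FDR, up to 6 per arm and direction, genes if listed by the authors or in lists by function. Chromosome 16, the lists and the minimum level were chosen with earlier results of these data known. Alternatives added after seeing the data were the implied error without recentring and 16p without its 5 Mb bin 7. Scripts ran in Python 3.11.15 (pandas 2.3.3, numpy 2.4.6, matplotlib 3.10.9, scipy 1.17.1). The result of 1 of the lists by function is not reported here.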

Additional observations from a re-analysis of the deposited data

How the results depend on the processing

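The 49 lower windows of chromosome 16 became 195 at an FDR of 0.05, 13 at 0.001, 2 to 11 in single sets and 2 after recentring with the implied error; in the same order there were 12, 0, 0 to 2 and 2 higher windows in place of 6, and 0 among measured windows. The 2 after recentring are measured windows and so are none of the 6. Counts stayed within 1.5 times with 50 kb windows (36 lower, 8 higher) and with Benjamini-Hochberg over all 9 sets. The arms held 14248 windows at 50 kb against 7111 at 100 kb, however, so the shares fell. The lower share of the 2 arms together went from 0.689% at 100 kb to 0.253% at 50 kb, and that of the series from 0.614% to 0.176%. Medians of change turned after recentring, to 0.04 on 16p and 0.01 on 16q, because the shift itself was removed. Their other alternatives, among them a higher minimum, 50 kb windows and arms without the 5 Mb at either end, kept both medians below 0, and 30 of 31 level-matched differences stayed above 0, the exception being the lowest single set for 16q, at 0.00. Counting all windows that were not measured gave 19.6% for 16p and 41.4% for 16q in place of the floor share, and leaving out the 5 Mb nearest the gap gave 7.43% for 16p, as other windows are counted. Leaving out each replicate was not run, as the values are means over libraries. No paired analysis was possible because the deposited values are 1 mean per treatment. Depth per library is unknown.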
